A study of Mus musculus with 12 samples.

Results

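A stem cell line derived from the mouse embryo at embryonic day (E) 5.75, rsEpiSC E5.75, was compared with the tissue of the same stage, epiblast E5.75. Both groups had 2 arrays, 4 of the 12 in the series, and all 22180 genes read by a probe set with 1 gene symbol entered the comparison. The labels name the line's cells IS-EPIs and their source intrinsic state epiblast stem cells. They were kept on mouse embryonic fibroblast (MEF) feeders in N2B27, a serum-free medium, with IWR1, an inhibitor of Wnt signalling, at 2.5 µM, plus an agent (20 ng/ml) whose name is missing from the label. The tissue was not cultured. Both came from mice with an OCT4-deltaPE-GFP reporter, a green fluorescent protein driven by Pou5f1 sequences, crossed to a C57BL strain. No label says whether the 2 arrays of a group were separate cultures or embryos, whether embryos were pooled, or how many lines were sampled. Each p-value therefore reflects nothing but a difference set against the spread between arrays of a group, a spread that may be technical. That spread was estimated over all 6 groups and 12 arrays of the series, not from the 4 arrays alone. The other groups used here are rsEpiSC E6.5 and epiblast E6.5, a line and a tissue of the later stage, and EpiSC. The labels give rsEpiSC E6.5, like rsEpiSC E5.75, IWR1 at 2.5 µM and an unnamed agent at 20 ng/ml. EpiSC is a line from E5.75 kept on MEFs in N2B27 with 20% KSR, a serum replacement, Activin A (20 ng/ml) and FGF2 (12 ng/ml).

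The epiblast is the embryo's pluripotent layer. After implantation it becomes a polarised epithelium, leaves the naive state of the preimplantation embryo for a primed state, and lays down DNA methylation that silences germline genes. Nodal and FGF signals keep it pluripotent. Wnt and BMP signals at its posterior side start the primitive streak, while anterior cells, shielded by secreted antagonists, turn towards neural ectoderm. Epiblast stem cells are lines taken from this layer, and their medium sets which of these signals they receive.

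Array signal is given as log2 values, and a difference is the line minus the tissue, so 1 is a 2-fold difference. The arrays of the tissue held a narrower range of values: the interquartile range was 2.23 and 2.57 in the tissue against 3.16 and 3.19 in the line, with medians of 4.63 to 4.70 on all 4 arrays. The median difference of all genes was -0.158, and it ran with signal level, from -0.62 in the lowest decile of signal to 0.47 in the eighth and 0.17 in the highest. Differences are therefore also given relative to -0.158. They were also recomputed after scaling each array to a common interquartile range, which turned the median of the highest decile to -1.12, and after quantile normalization, which left the decile medians between -0.09 and 0.07. Among 1390 olfactory and vomeronasal receptor genes, a yardstick of background signal in cells that should not use them, 312 were lower and 1 was higher in the line, with a median of -0.61 (-0.16 after quantile normalization). The 95th percentile of their values was 4.20 to 4.23 on the line's arrays and 4.69 to 4.80 on the tissue's. Values up to those levels are taken as background. Of the named genes that passed, 30 were at background on both line arrays, 21 on both tissue arrays and 3 on all 4, and a fitted difference against such a group depends on its background signal. A fold given as "at least" sets the dim group at the higher of its own signal and that level. The root mean square SD between the arrays of a group was 0.264 in the line and 0.464 in the tissue. Some genes of general use read low on the tissue's arrays: Actb, cytoplasmic actin, read 9.77 and 9.70 in the line against 5.33 and 7.05 in the tissue, and Rplp0, a ribosomal stalk protein, 10.44 and 10.63 against 6.45 and 6.99. Gapdh, a glycolytic enzyme, differed by 0.45 ± 0.14 (SE). The part of RNA amount or quality in these differences was not tested.

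**Figure D1:**
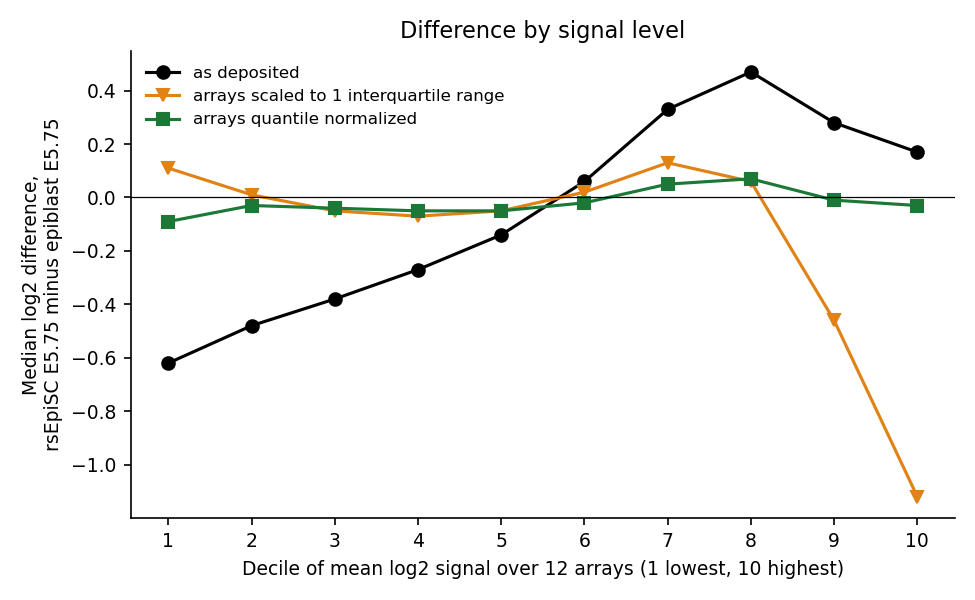
Median log2 difference, line minus tissue, in each decile of mean signal over the 12 arrays, with the values as deposited (black), scaled to a common interquartile range (orange) and quantile normalized (green). As deposited, the median ran from -0.62 in the lowest decile to 0.47 in the eighth. After scaling it reached -1.12 in the highest decile.

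In the limma fit, 4768 of 22180 genes passed an adjusted p under 0.05 (21.5%). Of these, 2550 were higher in the line (11.5% of those tested) and 2218 lower (10%), and 3562 differed at least 2-fold (16.1%). With arrays scaled, 1585 were higher and 3037 lower. The count stood on few arrays: it was 1627 without the first line array, 1755 without the second, 3031 without the first tissue array and 5504 without the second. Against a difference of at least 2-fold, limma's treat test passed 322 genes, 236 higher and 86 lower. In the account that follows, "rose" and "fell" mean that a gene passed in the line against the tissue, and adjusted p values are limma's with Benjamini-Hochberg adjustment over all genes. Left-out counts of a list are those without the first line array, the second line array, the first tissue array and the second tissue array, in that order. Groups of 2 arrays are often separate with no true difference, so a lack of overlap mentioned below adds no support to a call. For the genes with the largest rise or fall it was a condition of naming.

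**Figure D2:**
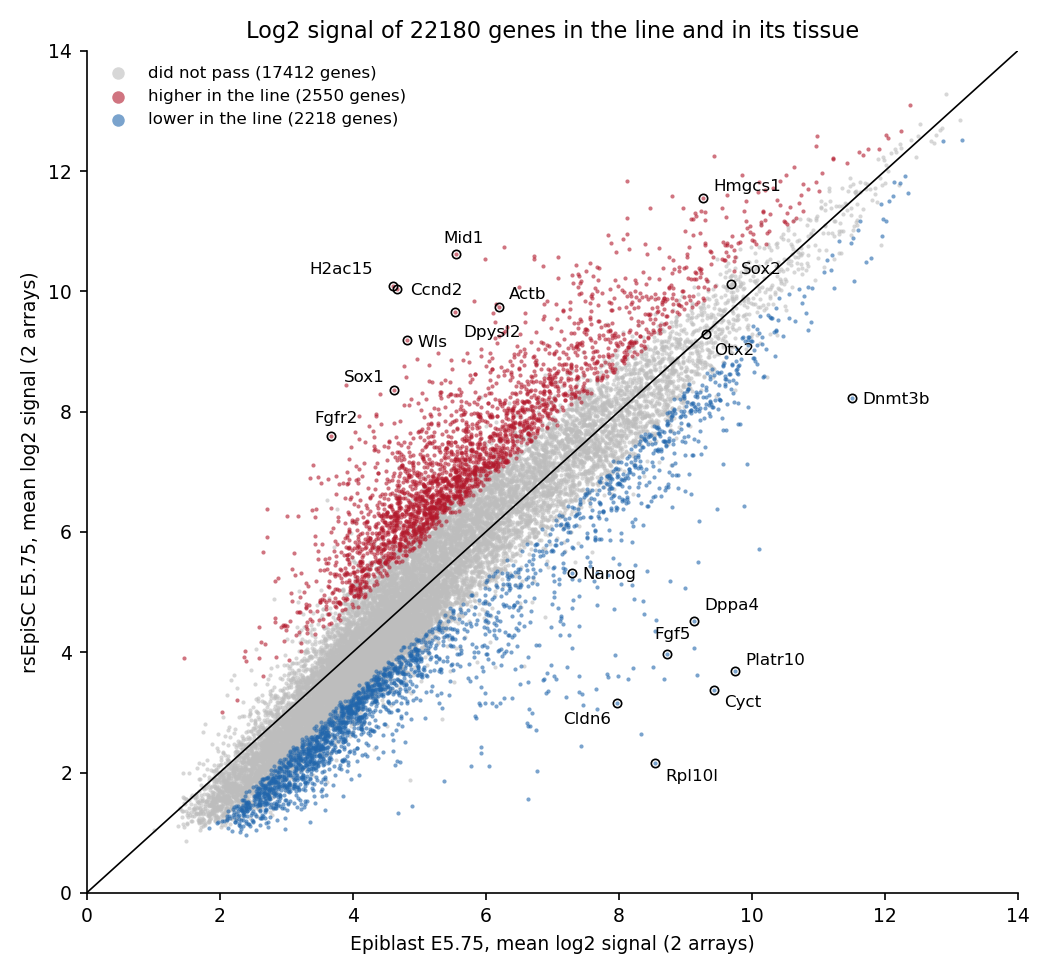
Mean log2 signal of 22180 genes in the line (vertical, 2 arrays) against the tissue (horizontal, 2 arrays); red, 2550 genes that rose; blue, 2218 that fell; the diagonal marks equal signal. Sox2 and Otx2 lie near the diagonal, while Ccnd2, Mid1 and Wls lie far above it and Rpl10l, Cyct and Dnmt3b far below it.

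The genes that rose furthest were H2ac15, a histone H2A gene, at 5.48 ± 0.76 (SE), Ccnd2, cyclin D2, at 5.37 ± 0.53, and Mid1, an X-linked microtubule-associated ubiquitin ligase, at 5.07 ± 0.26. Ccnd2 read 9.97 and 10.11 in the line and 4.75 and 4.59 in the tissue, which is at background (adjusted p = 9.34e-05), so it was at least 39.2-fold higher. Each group was tight. H2ac15 read 10.18 and 9.99 in the line but 6.27 and 2.93 in the tissue, so its tissue arrays disagreed, and its probes may also read near-identical histone copies. The next were Greb1l at 4.54, Txnip, a thioredoxin inhibitor, at 4.54, Trp53i11, named as induced by p53, at 4.47, Wls, the carrier that Wnt proteins need for secretion, at 4.36, Dpysl2, a regulator of axon growth, at 4.11, Fxyd6, a sodium pump regulator, at 4.01, Large2, a glycosyltransferase acting on dystroglycan, at 3.99, Fgfr2, an FGF receptor, at 3.92, and Lix1l at 3.91.

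The genes that fell furthest were led by testis-type copies of genes used in all cells. Rpl10l, a retrogene of the ribosomal protein gene Rpl10, read 1.70 and 2.63 in the line and 8.94 and 8.15 in the tissue, a difference of -6.38 ± 0.44 (SE; adjusted p = 1.35e-05). The line's values are at background and the tissue's well above it. Cyct, the testis cytochrome c, fell by 6.06 and Fthl17e, an X-linked ferritin heavy chain copy, by 5.70. Platr10, a long noncoding RNA of pluripotent cells, fell by 6.07, and Nnat, an imprinted gene of the nervous system, by 5.55. Pla2g1b, a secreted phospholipase, fell by 5.06, the tight junction protein Cldn6 by 4.82, the epithelial splicing factor Esrp1 by 4.76 and the growth factor Fgf5 by 4.75. The zinc finger genes Zfp992 and Zfp979 fell by 5.12 and 4.62, with Zfp981 between them.

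**Figure D3:**
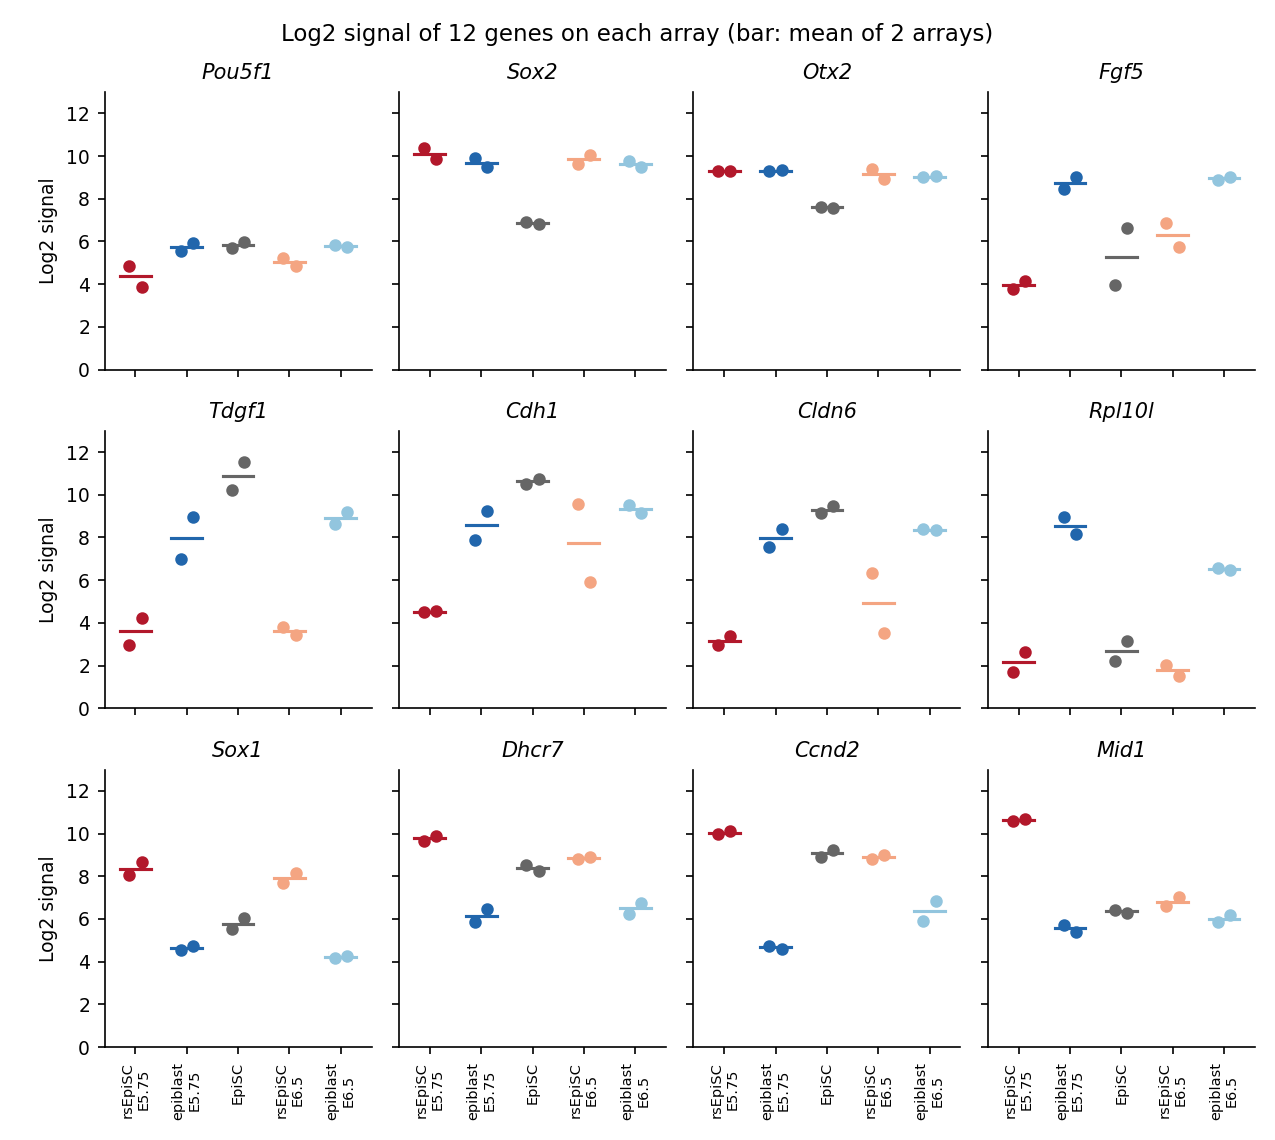
Log2 signal of 12 genes on each array of 5 groups (points, 2 arrays a group; bar, their mean). Sox2 and Otx2 differed by 0.43 and -0.02 between line and tissue at E5.75 (-1.14 and -1.43 with arrays scaled), whereas Tdgf1, Cdh1, Cldn6 and Rpl10l were low in the line and Sox1, Dhcr7, Ccnd2 and Mid1 high; Mid1 stood at 10.57 and 10.68 in rsEpiSC E5.75 against 6.60 and 7.02 in rsEpiSC E6.5.

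Among 12 core pluripotency genes, 7 fell and 4 rose (median difference -1.23; left-out counts that rose 2, 2, 2 and 3). Pou5f1, the transcription factor OCT4, read 4.87 and 3.86 in the line and 5.54 and 5.91 in the tissue. The groups did not overlap, and it fell by 1.36 ± 0.33 (SE; adjusted p = 0.0139; -1.20 relative to the median of all genes). That call rested on the second line array, without which the difference was -0.86 (adjusted p = 0.146), and it was also lost without the second tissue array (-1.18, adjusted p = 0.0527). Nanog, its partner factor, read 5.08 and 5.56 against 6.89 and 7.69 and fell by 1.97 ± 0.35 (adjusted p = 0.00286). Sox2, their common partner, did not pass: it read 10.37 and 9.87 in the line and 9.90 and 9.48 in the tissue, a difference of 0.43 ± 0.24 (adjusted p = 0.213) that turned to -1.14 with arrays scaled.

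The largest falls among these genes were in chromatin and RNA factors. Dppa4 and Dppa2, neighbouring genes whose products prime chromatin for early embryonic genes, fell by 4.60 ± 0.35 and 4.58 ± 0.40 (adjusted p = 2.17e-05 and 4.5e-05). Dppa2 read 3.75 and 3.36 in the line, at background, and 7.88 and 8.39 in the tissue. L1td1, an RNA-binding protein, fell by 4.38 ± 0.78, and Utf1, a chromatin factor, by 2.01 ± 0.37. Lin28a, which blocks let-7 processing, went the other way: it read 9.25 and 8.69 against 6.12 and 6.01, 7.5-fold higher (2.91 ± 0.29; adjusted p = 0.000104). Tcf3, here the bHLH factor E2A, rose by 1.57 ± 0.27. Tcf7l1, the pluripotency repressor that once bore that symbol and is not on the list, did not pass (0.35 ± 0.37). With arrays scaled, 7 of the 12 fell and 1 rose.

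Of 18 naive genes, 3 fell and 1 rose (median -0.42; left-out counts that fell 2, 2, 5 and 2, and none rose). Dppa3, a maternal and germ cell factor that protects against DNA demethylation, read 2.77 on both line arrays and 6.02 and 7.27 in the tissue, and fell by 3.88 ± 0.37 (adjusted p = 7.74e-05). The naive growth factor gene Fgf4 fell by 1.82 ± 0.35 and Nr0b1, an orphan nuclear receptor, by 1.54 ± 0.46, although Nr0b1 passed in only 1 of 4 fits with an array left out. Klf4 (-0.34), Esrrb (0.05) and Zfp42 (-0.97, adjusted p = 0.117) did not pass.

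The primed genes were split. Of 18, 5 fell and 3 rose (median -0.39; 3 fell without the first line array; 11 fell and none rose with arrays scaled). Otx2, a head and epiblast transcription factor, read 9.29 on both line arrays and 9.28 and 9.35 in the tissue, a difference of -0.02 ± 0.33 (-1.43 with arrays scaled). Fgf5, the classic primed marker, read 3.78 and 4.17 in the line, at background, and 8.45 and 9.00 in the tissue, at least 22.8-fold lower (-4.75 ± 0.65; adjusted p = 0.000655). Zic5, a zinc finger factor, fell by 2.02 ± 0.45 (adjusted p = 0.0947 without the first line array) and Pou3f1, a POU factor of the same stage, by 1.08 ± 0.29 (adjusted p = 0.0215). The Pou3f1 call did not hold without any 1 of the 4 arrays, with an adjusted p of 0.0518 to 0.132. Crabp2, a retinoic acid carrier, rose by 2.12 ± 0.25 and Tead2, a Hippo pathway factor, by 1.87 ± 0.35; both missed the threshold with arrays scaled.

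Dnmt3b, the main de novo DNA methyltransferase of the epiblast, read 8.09 and 8.37 in the line and 11.43 and 11.59 in the tissue. All tissue values lay above all line values, and the gene fell by 3.28 ± 0.55 (SE; adjusted p = 0.00209; -3.12 relative to the median of all genes). Dnmt3l, its cofactor, fell by 1.52 ± 0.47. Tet1, an enzyme that oxidises methylated cytosine, fell by 1.20 ± 0.30. Uhrf1, the maintenance factor that guides Dnmt1, rose by 1.49 ± 0.28 (0.30, not passed, with arrays scaled) and Tet3 by 1.67 ± 0.30. Dnmt3a differed by -0.51 ± 0.25 and did not pass. In all, 3 of 11 genes rose and 3 fell as deposited, while scaling gave 2 and 6 (left-out counts that rose 2, 2, 2 and 5, and that fell 1, 1, 1 and 2). The Dnmt3l call was lost in all 4 fits with an array left out (adjusted p = 0.0502 to 0.185), and Tet1 passed only without the second tissue array (adjusted p = 0.0662 to 0.107 in the other 3).

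Germline genes that the embryo silences by promoter methylation fell as a group: 11 of 16 fell and none rose, with a median of -1.25 against -0.158 over all genes (8 fell with arrays scaled or quantile normalized; 7 without either line array or without the first tissue array). Rpl10l fell furthest. Hormad1, which monitors meiotic chromosome axes, read 2.23 and 2.00 in the line and 6.40 and 5.14 in the tissue (-3.66 ± 0.73; adjusted p = 0.00544). Sycp1, the transverse filament of the synaptonemal complex, read 3.15 and 2.65 against 5.82 and 5.89 (-2.95 ± 0.36; adjusted p = 0.000343). For both, the line was at background and the tissue was not. Mael, of the piRNA pathway, fell by 2.95 ± 0.40, Stk31 by 2.51 ± 0.47 and Ddx4, the germ cell RNA helicase of another list, by 2.79 ± 0.26. Tex19.1 (-0.91) and Taf7l (-0.81) did not pass. In EpiSC, Rpl10l, Hormad1 and Sycp1 averaged 2.68, 2.22 and 2.82, and none of the 16 passed between the 2 lines, where 3.87% of all genes did. In epiblast E6.5, Sycp1 read 3.32 and 3.37 and Hormad1 3.54 and 2.04, below the earlier tissue. Of 9 genes of the 2-cell stage programme, 4 fell and none rose (median -0.96), by 0.85 to 1.17. Their mean signal was 2.89 and 2.94 in the line and 3.75 and 3.64 in the tissue, at background in both, as are the receptor genes that also fell. None of the 9 passed without either line array, and 1 fell after quantile normalization. Near-identical copies in these families may share probes.

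Promoters of the germline genes are shown for a motif found in many of them. Of 15 with a RefSeq window of 250 bases before to 50 after the start, 9 (60.0%) hold CACGTG, the E-box read the same on both strands, against 9.19% of 16990 measured genes with such a window. It was found in 4 of 19 windows of the cholesterol and lipid genes (21.1%) and in 3 of 17 of the epithelial genes (17.6%). The motif was in 6 of 10 germline members that fell and in 3 of 5 that did not pass, and not in Rpl10l. A match describes letters and is not a measured binding site. The windows of Hormad1 (GRCm38.p6, chr3:95559427-95559726, plus strand, 2 matches) and Sycp1 (chr3:102936051-102936350, minus strand, 1 match) follow, with the E-box in capitals.
Hormad1: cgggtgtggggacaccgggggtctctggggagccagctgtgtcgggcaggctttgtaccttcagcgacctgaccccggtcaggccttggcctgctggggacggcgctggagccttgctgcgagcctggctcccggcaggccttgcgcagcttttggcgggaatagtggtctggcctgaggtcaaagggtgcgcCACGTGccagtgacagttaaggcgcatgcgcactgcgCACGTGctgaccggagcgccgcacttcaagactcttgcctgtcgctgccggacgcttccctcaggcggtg
Sycp1: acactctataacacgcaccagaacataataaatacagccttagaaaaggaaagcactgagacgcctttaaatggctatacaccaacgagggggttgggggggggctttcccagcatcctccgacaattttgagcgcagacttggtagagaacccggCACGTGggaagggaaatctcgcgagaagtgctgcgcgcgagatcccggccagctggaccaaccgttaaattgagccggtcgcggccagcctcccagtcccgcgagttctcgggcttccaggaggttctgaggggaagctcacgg

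A cluster of KRAB-type zinc finger genes on chromosome 4 was low in the line throughout. Between Zfp980 and Zfp979 in RefSeq order, all 7 measured genes with a Zfp symbol fell (median -4.0). Of 7 measured genes with other symbols there, 5 fell and none rose. The split was by symbol alone, so those 7 may include zinc finger genes with other names, such as Rex2. Zfp981 read 2.99 and 1.89 in the line and 6.85 and 8.02 in the tissue (-4.995 ± 0.43; adjusted p = 4.43e-05), so the line was at background. Rex2 fell by 3.94 ± 0.47, and the member with the smallest fall, Zfp600, fell by 2.28 ± 0.45, a call kept in 3 of 4 fits with an array left out. These genes are near-identical copies, and their probe sets may read each other's transcripts. The stretch was singled out after its values were seen.

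In the Nodal pathway 4 of 21 genes rose and 4 fell (left-out counts that rose 0, 1, 2 and 3, and that fell 4, 2, 3 and 4). Among ligands and their partners, Nodal itself read 4.90 and 4.81 against 5.57 and 5.95 and did not pass (-0.91 ± 0.56; adjusted p = 0.264). Tdgf1, the coreceptor Cripto that Nodal needs, read 2.98 and 4.24 in the line and 6.99 and 8.98 in the tissue. The line was at or just above background and the groups did not overlap, and Tdgf1 fell by 4.38 ± 0.61 (SE; adjusted p = 0.000747). The related ligand Gdf3 fell by 2.17 ± 0.43; without the second line array its adjusted p was 0.0529. The Activin receptors Acvr1b and Acvr2b rose by 1.26 ± 0.32 and 1.12 ± 0.31 and the protease Furin, which matures Nodal, by 1.12 ± 0.27; none of these passed after quantile normalization. Both receptors passed only without the second tissue array among the fits with an array left out (adjusted p = 0.0501 to 0.16 in the others). Among targets and inhibitors, Skil, a feedback repressor of SMAD signalling, read 5.51 and 4.88 against 8.90 and 8.64 and fell by 3.58 ± 0.30 (adjusted p = 3.58e-05). Lefty1 (0.21) and Lefty2 (-0.99), secreted Nodal antagonists, and the cofactor Foxh1 (0.02) did not pass. EpiSC, kept in another medium, averaged 10.88 for Tdgf1 and 8.12 for Lefty1. In 7 of the 21 genes rsEpiSC E5.75 was lower than EpiSC, and in none higher (2.31% and 1.56% of all genes).

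In the FGF family, 3 ligand genes fell and 3 genes of receptors or their partners rose. Fgf5, Fgf4 and Fgf3 fell (Fgf3 by 0.86 ± 0.27, a call kept in 1 of 4 fits with an array left out), and Fgfr2, Fgfr1 and Flrt3 rose, among 13 genes. Fgfr2 read 7.81 and 7.39 in the line and 3.32 and 4.03 in the tissue, at background there, and rose by 3.92 ± 0.32 (SE; adjusted p = 3.16e-05). Fgfr1 read 7.65 and 7.79 against 5.76 and 5.63 (2.02 ± 0.26), and Flrt3, a membrane partner of FGF receptors, rose by 2.38 ± 0.30. Fgf8, Fgf2, Fgf15 and Fgf17 did not pass. Of 15 ERK target and feedback genes, 4 rose and 1 fell, with a median of 0.80 that became -0.06 with arrays scaled. The early response factor Egr1 rose by 3.05 ± 0.46, Phlda1 by 2.41 ± 0.41 and the ERK phosphatase Dusp4 by 2.15 ± 0.36, and Etv5 fell by 1.18 ± 0.37 (adjusted p = 0.0409). Etv5 kept its call in 1 of 4 fits with an array left out, with an adjusted p of 0.049 to 0.277.

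Of 14 Wnt target genes 2 rose, a share near the 11.5% of all genes that rose: Nkd1, a feedback inhibitor, by 1.46 ± 0.35 and Nkd2 by 1.02 ± 0.29. In the fits without 1 line array no member of the list passed, nor without the first tissue array. Axin2, the standard target, read 5.85 and 6.37 against 5.90 and 5.42 (0.45 ± 0.30; adjusted p = 0.306), and Sp5, Lef1 and Dkk1 did not pass. Of 26 Wnt ligands, receptors and antagonists, 5 rose and none fell (left-out counts 2, 3, 3 and 4). Wls, not on that list, read 9.25 and 9.12 in the line and 4.02 and 5.62 in the tissue (4.36 ± 0.50; adjusted p = 0.000254). Wnt1, a ligand of the midbrain, read 7.70 and 7.64 against 4.13 and 3.95 (3.63 ± 0.47; adjusted p = 0.000472), and Frzb, a secreted Wnt antagonist, 7.21 and 7.03 against 3.76 and 3.05 (3.72 ± 0.48; adjusted p = 0.000487). For both, the tissue was at background. Wnt3, the streak ligand, did not pass (-0.77).

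Notch and Hedgehog genes were higher in the line: 10 of 21 rose and none fell, with a median of 0.97 (6 with arrays scaled, 7 after quantile normalization; 6 and 4 without the first and second line array). The Notch ligand Jag1 read 6.83 and 7.03 against 4.12 and 3.37 and rose by 3.19 ± 0.41 (SE; adjusted p = 0.000459). The receptor Notch2 read 7.75 and 7.95 against 4.76 and 4.67 and rose by 3.14 ± 0.26 (adjusted p = 3.6e-05). Line and tissue were separate for both. Lfng, which glycosylates Notch, rose by 2.78 ± 0.34, and Gli3, a Hedgehog-responsive repressor, by 2.74 ± 0.34. The targets Gli1 (-0.12) and Hes5 (-0.05) did not pass. Of 21 BMP genes 4 rose and 1 fell (left-out counts that rose 1, 1, 2 and 4), led by Bmp4 at 2.15 ± 0.58 and Bmp7 at 1.69 ± 0.31; Bmp4 and Id1 passed only without the second tissue array among the fits that left 1 array out. Of 16 retinoic acid genes, the binding proteins Crabp1 (3.12 ± 0.44) and Crabp2 rose, a share near that of all genes, and the other 14 did not pass.

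Among 23 anterior neural genes, 15 rose and none fell (median 1.46), 13 with arrays scaled or quantile normalized, and 8 without the first line array. Sox1, the earliest marker of neural plate, read 8.04 and 8.66 in the line and 4.53 and 4.72 in the tissue, near background there, and rose by 3.73 ± 0.31 (SE; adjusted p = 3.6e-05). Fezf2, a forebrain factor, read 8.63 and 7.99 against 5.15 and 4.94 (3.27 ± 0.35; adjusted p = 0.000161), and Rax, of the eye field, 7.56 and 6.61 against 4.57 and 4.10 (2.75 ± 0.33; adjusted p = 0.00032). All line arrays were above all tissue arrays. Lhx5 rose by 2.68 ± 0.40 and the adhesion molecule Ncam1 by 2.52 ± 0.48. Hesx1, of the anterior plate, read 7.77 and 5.95 against 3.97 and 4.74 (2.51 ± 0.61; adjusted p = 0.0137), with line arrays well apart, and it passed in 2 of 4 fits with an array left out. The neuronal tubulin Tubb3 (1.79 ± 0.82; adjusted p = 0.134) and Otx1 (0.79 ± 0.28; adjusted p = 0.0626) did not pass. Against EpiSC, 9 of the 23 were higher in rsEpiSC E5.75 and none lower (3.87% of all genes passed in that comparison, 1.56% higher); Fezf2 averaged 3.72 and Sox1 5.79 in EpiSC.

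Of 37 axon guidance genes, 14 rose and 2 fell (median 0.64, also with arrays scaled; left-out counts that rose 9, 10, 9 and 11). Efnb2, an ephrin ligand, read 8.63 and 8.38 against 4.69 and 5.59 and rose by 3.36 ± 0.42 (SE; adjusted p = 0.000399). The ephrin receptors Epha4 and Epha7 rose by 2.64 ± 0.40 and 2.61 ± 0.28, and the semaphorin Sema3e fell by 2.30 ± 0.36. The primitive streak and mesoderm list gave 1 up and 1 down of 21, where 11.5% of all genes rose and 10% fell. The gene that rose was Pdgfra, a mesoderm receptor, at 1.44 ± 0.40, and the gene that fell was Eomes. With an array left out, the difference of Pdgfra ran from 0.71 to 2.16, and some of those fits lost the call. Eomes, which starts mesendoderm and is also a trophoblast gene, read 4.31 and 4.25 in the line, near background, and 7.14 and 7.35 in the tissue (-2.96 ± 0.26; adjusted p = 4.99e-05). Mixl1 (0.18), Gsc (-0.10) and Foxa2 (-0.35) did not pass.

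Epithelial genes were lower in the line: 11 of 24 fell and none rose (median -0.94; 15 fell with arrays scaled and 12 after quantile normalization; 5 without the second line array, 6 without the first line array or the first tissue array). Cdh1, the epithelial cadherin, read 4.50 and 4.56 in the line, near background, and 7.88 and 9.24 in the tissue, 16.4-fold lower (-4.04 ± 0.82, SE; adjusted p = 0.00611). Epcam, an epithelial adhesion molecule, read 5.17 and 4.96 against 8.79 and 9.21 (-3.93 ± 0.53; adjusted p = 0.000556). Cldn6, a tight junction claudin, read 2.95 and 3.37 against 7.54 and 8.42 (-4.82 ± 0.68; adjusted p = 0.000782). None of these groups overlapped, which for Cldn6 was a condition of naming. Esrp1, which sets epithelial splicing, fell by 4.76 ± 0.64, and Grhl2, an epithelial transcription factor, fell by 2.07 ± 0.31. The simple keratins Krt8 and Krt18 both differed by -0.12 and did not pass. EpiSC was unlike the line here: it averaged 10.63 for Cdh1, 9.51 for Epcam and 9.31 for Cldn6, and rsEpiSC E5.75 was lower than EpiSC in 16 of the 24 genes, higher in none (2.31% of all genes were lower).

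Cdh2, the neural and mesenchymal cadherin, read 8.83 and 8.81 against 8.04 and 8.59 and did not pass (0.50 ± 0.60; adjusted p = 0.572). Of 14 mesenchymal genes 4 rose and none fell (left-out counts 3, 2, 3 and 3). Fn1, fibronectin, rose by 2.20 ± 0.32, Zeb1, a repressor of Cdh1, by 2.18 ± 0.29, the intermediate filament Vim by 1.81 ± 0.50 and the matrix protein Sparc by 1.36 ± 0.28. Sparc missed the threshold without the second line array (adjusted p = 0.0774), and the Vim call was lost in all 4 fits with an array left out (adjusted p = 0.0632 to 0.136). Snai1, Snai2 and Twist1 did not pass. Of 18 basement membrane genes 8 rose and none fell (5 with arrays scaled; left-out counts 4, 6, 8 and 8). Nid1, nidogen, read 6.34 and 5.48 in the line and 3.06 and 2.38 in the tissue, at background (3.19 ± 0.48; adjusted p = 0.00116), and Dag1, the laminin receptor dystroglycan, rose by 2.08 ± 0.34. Of 17 YAP targets and cytoskeletal genes 9 rose and none fell, with a median of 1.41 (0.72 with arrays scaled, where 6 rose and 1 fell). The matricellular protein Ccn1 rose by 2.69 ± 0.41, the myosin light chain Myl9 by 2.45 ± 0.44 and the focal adhesion protein Vcl by 1.94 ± 0.30.

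**Figure D4:**
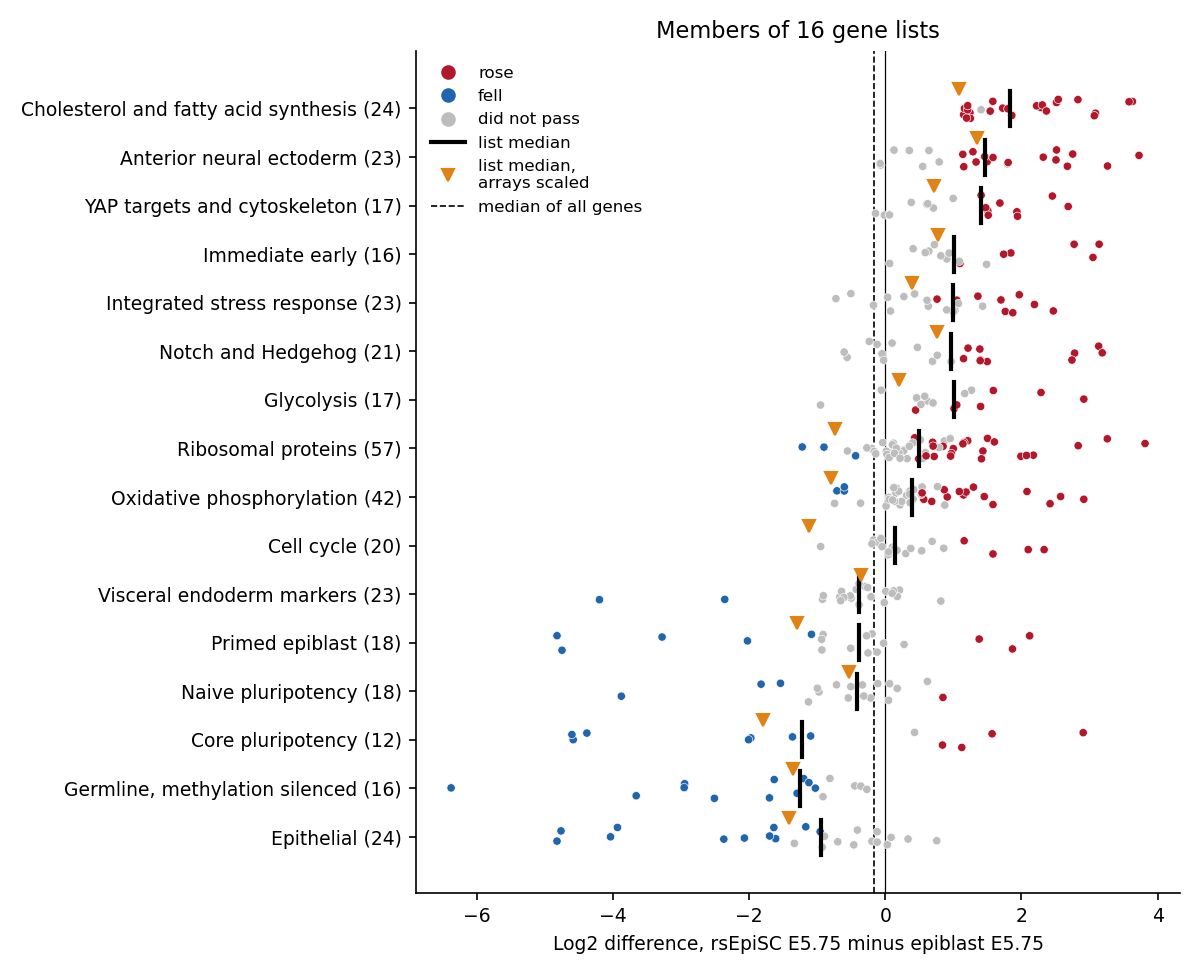
Log2 difference of each measured member of 16 gene lists (number of members in brackets; red, rose; blue, fell; grey, did not pass), with the list median (black bar), the median after scaling the arrays (orange triangle) and the median of all genes, -0.158 (dashed). The cholesterol and neural lists lie to the right under both settings, whereas the medians of ribosomal protein, oxidative phosphorylation and cell cycle genes change sign when arrays are scaled.

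Genes of sterol and fatty acid synthesis were higher in the line: 23 of 24 rose and none fell, with a median of 1.83. With arrays scaled 14 rose (median 1.09), after quantile normalization 19, and 13 rose without the second line array. Srebf2, the transcription factor that drives the pathway, read 9.98 and 10.17 in the line and 5.49 and 7.50 in the tissue (3.58 ± 0.52, SE; adjusted p = 0.000864), with tissue arrays far apart but both below the line. Hmgcs1, at the entry to the mevalonate pathway, read 11.45 and 11.67 against 9.20 and 9.34, 4.88-fold higher (2.29 ± 0.24; adjusted p = 0.000148), and 0.74 with arrays scaled, where it did not pass. Mvd, further along that pathway, rose by 3.09 ± 0.33 and Fdps, which makes farnesyl diphosphate, by 2.83 ± 0.28. Dhcr7, the last step to cholesterol, read 9.67 and 9.90 against 5.85 and 6.47, 12.4-fold higher (3.63 ± 0.28; adjusted p = 2.17e-05). Both groups of Dhcr7 were tight. Fasn, fatty acid synthase, rose by 3.07 ± 0.50. Scd1, a fatty acid desaturase, was the gene that did not pass, and its arrays overlapped (7.99 and 9.27 against 6.43 and 8.02; adjusted p = 0.0546). Against EpiSC, 12 of the 24 were higher in rsEpiSC E5.75 and none lower (1.56% and 2.31% of all genes).

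Promoters of these genes are shown because the members moved together. Of 19 with a RefSeq window, 14 (73.7%) hold CCAATC on either strand, a form of the CCAAT box, against 20.0% of all 16990 measured genes with a window, 47.1% of the neural, 20.0% of the germline and 5.88% of the epithelial genes. CCAAT alone, which every CCAATC match contains, was in 17 of the 19 (89.5%) against 41.6% of all. TCACNCCAC, letters of the sterol response element, was in 1 of the 19, Hmgcs1 (5.26%), against 1.43% of all. No match says only that these letters are not in the window. The windows of Dhcr7 (GRCm38.p6, chr7:143829964-143830263, plus strand, 1 of its 3 windows, with 2 CCAATC matches) and Hmgcs1 (chr13:119690101-119690400, plus strand, 1 match of each motif) follow, with matches in capitals and GATTGG as the other strand of CCAATC.
Dhcr7: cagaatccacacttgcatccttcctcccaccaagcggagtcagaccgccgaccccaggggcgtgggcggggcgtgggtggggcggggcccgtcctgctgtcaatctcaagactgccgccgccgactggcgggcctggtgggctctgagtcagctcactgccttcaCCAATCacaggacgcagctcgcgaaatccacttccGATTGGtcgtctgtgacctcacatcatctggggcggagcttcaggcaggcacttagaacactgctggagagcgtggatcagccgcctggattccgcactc
Hmgcs1: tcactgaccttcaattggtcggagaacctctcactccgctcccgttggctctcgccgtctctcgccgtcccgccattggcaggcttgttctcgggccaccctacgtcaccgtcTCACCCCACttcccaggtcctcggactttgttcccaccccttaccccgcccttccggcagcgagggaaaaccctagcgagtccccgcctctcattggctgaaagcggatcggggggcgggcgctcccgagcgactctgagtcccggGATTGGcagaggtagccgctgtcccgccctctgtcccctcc

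Over all genes with a window, the promoters of genes that rose were richer in GC and CpG than those of genes that fell: the median GC content was 61.7% against 50.3%, with 21 against 6 CpG per window, and 56.0% and 12.5 for genes that did not pass. Signal level moves with this. Within deciles 6 to 8 of signal, the medians were 62.0% for genes that rose, 57.3% for those that fell and 61.0% for the rest.

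Of 23 integrated stress response genes, 9 rose and none fell (median 1.00; 3 rose and 4 fell with arrays scaled). Shmt2, of mitochondrial serine metabolism, read 9.47 and 9.62 against 7.12 and 7.04 (2.47 ± 0.27; adjusted p = 0.000172), and Asns, asparagine synthetase, rose by 1.97 ± 0.21. Without the second line array 5 rose. Of 16 p53 targets, 7 rose and 1 fell. Cdkn1a, the CDK inhibitor p21, read 9.48 and 9.79 against 5.25 and 6.96 (3.53 ± 0.47; adjusted p = 0.00052), Btg2, an antiproliferative factor, rose by 3.14 ± 0.49, and Pmaip1, the death factor Noxa, fell by 2.63 ± 0.55 (adjusted p = 0.0531 without the second line array). The left-out counts that rose were 4, 3, 3 and 8. Of 16 immediate early genes 6 rose and none fell as deposited, with arrays scaled and after quantile normalization, including Jun at 2.77 ± 0.43, Nr4a1 at 1.85 ± 0.30 and Klf6 at 1.74 ± 0.28, whereas Fos did not pass (1.49 ± 0.69). Among 14 heat shock genes, Hspa1b fell by 3.25 ± 0.46 and Hspb1, read at 4.55 and 4.60 against 7.22 and 7.05, by 2.56 ± 0.23, while 4 rose, led by Cryab at 2.32 ± 0.47. None of the 4 passed without the second line array (Cryab at adjusted p = 0.0685). With arrays scaled, 2 heat shock genes rose and 9 fell, and the median of that list went from -0.33 to -1.72. Hspa1b is nearly identical to Hspa1a, which differed by -1.10 and did not pass.

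Several lists of genes with high signal changed direction with scaling. Of 57 ribosomal protein genes 23 rose and 3 fell as deposited, but 5 rose and 30 fell with arrays scaled (median 0.49 and -0.74). Oxidative phosphorylation gave 15 up and 3 down of 42 against 2 and 21 (median 0.40 and -0.79), and the cell cycle list 4 up and none down of 20 against 1 and 11 (0.15 and -1.12). No direction is given for these. Left-out counts that rose were 12, 11, 14 and 25 for ribosomal proteins and 7, 7, 10 and 21 for oxidative phosphorylation. Glycolysis had 8 up and none down of 17 (median 1.01; left-out counts 2, 2, 3 and 10), and 2 up and 3 down with arrays scaled (0.20). Within it Slc2a3, a glucose transporter, read 10.14 and 9.45 against 6.39 and 7.37 and rose under each scaling (2.92 ± 0.34; 2.10 scaled). Of 15 hypoxia genes 5 rose and none fell, led by Ddit4, an mTOR inhibitor, at 3.62 ± 0.37, whereas 3 rose and 4 fell with arrays scaled (left-out counts that rose 2, 4, 3 and 5). Of 10 cyclin and CDK inhibitor genes 5 rose, with Ccnd2 and Cdkn1a furthest (left-out counts 2, 3, 3 and 6). The proliferation marker Mki67 read 9.13 and 9.08 against 9.50 and 8.83 and did not pass (-0.06 ± 0.28).

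Of 24 imprinted genes, 9 rose and 2 fell (left-out counts that rose 5, 4, 5 and 8). Nnat read 3.78 and 3.47 in the line, at background, and 9.70 and 8.66 in the tissue (-5.55 ± 0.66, SE; adjusted p = 0.00028), and the amino acid transporter Slc38a4 fell by 4.07 ± 0.72. Those that rose included the growth factor Igf2 at 2.70 ± 0.57, the signalling adaptor Grb10 at 2.54 ± 0.25 and Peg3 at 2.41 ± 0.40. Igf2 read 8.33 and 8.21 against 5.84 and 5.30; its adjusted p was 0.0551 without the first line array. In the later pair, Nnat read 9.58 and 7.04 in rsEpiSC E6.5 and 8.71 and 9.23 in epiblast E6.5. The difference between the stages was -4.89 ± 0.93 and did not pass (adjusted p = 0.135).

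Sex-linked genes varied between arrays of the line. Eif2s3y, on the Y chromosome, read 5.16 and 2.33 in the line and 8.31 and 8.10 in the tissue (-4.46 ± 1.30, SE; adjusted p = 0.0307), and Uty, also Y-linked, 3.80 and 3.23 against 5.68 and 5.84 (-2.25 ± 0.60; adjusted p = 0.0212). Without the second line array Eif2s3y differed by -3.04 (adjusted p = 0.224); it passed only without the first (-5.88, adjusted p = 0.0399), and Uty passed in no fit that left an array out (adjusted p = 0.0646 to 0.134). Xist, the RNA that coats the inactive X, read 8.23 and 10.19 against 9.05 and 8.78 (0.29 ± 0.54; adjusted p = 0.72). Both tissue arrays were thus high for Xist and for Eif2s3y. On the X chromosome 8.45% of 899 genes rose and 13.9% fell (median -0.33), against 11.5% and 10% of all genes. An autosome, chromosome 13, had close values: 8.97% rose and 12.8% fell (median -0.27).

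Some probe sets read transcripts that hold microRNA hairpins; they do not measure the mature molecules. Of 478 microRNA genes measured, 22 rose and 61 fell, where 11.5% of all genes rose and 10% fell. Their median of -0.43 became -0.1 after quantile normalization. In the lowest decile of signal over all genes, 515 of 2218 fell and 2 rose, with a median of -0.62. The signal levels of the microRNA genes were not set against those deciles. The clusters were chosen after their values were seen. The miR-17-92 cluster is known to promote proliferation, and all 4 of its members measured rose. The mature sequences of 6 genes that passed in these clusters are shown to compare their seeds (bases 2 to 8, in capitals): miR-17, miR-20a and miR-20b have the same seed, while miR-18a, miR-19a and miR-302a-5p each have another. For Mir302a the seed is that of its 5p arm alone. They are from RefSeq with GRCm38.p6.
miR-17-5p: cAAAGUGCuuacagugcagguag
miR-20a-5p: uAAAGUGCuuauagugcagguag
miR-20b-5p: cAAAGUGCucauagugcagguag
miR-18a-5p: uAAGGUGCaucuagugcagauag
miR-19a-3p: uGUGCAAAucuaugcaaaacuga
miR-302a-5p: aCUUAAACgugguuguacuugc

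Mir17 (chr14:115043671-115043754, plus strand) read 6.16 and 6.38 in the line and 3.07 and 2.96 in the tissue, at background there, and rose by 3.25 ± 0.25 (SE; adjusted p = 2.17e-05). Mir19a (chr14:115044000-115044081) rose by 2.44 ± 0.37 from 1.39 and 1.55 to 4.48 and 3.34, and Mir18 by 2.32 ± 0.44 (adjusted p = 0.00387). For Mir19a both tissue values and the second line value are at background. Mir20a rose by 2.36 ± 0.70 (adjusted p = 0.0322), a call that no fit with an array left out kept. In the related miR-106a-363 cluster on the X chromosome 1 of 5 members rose, Mir20b (1.92 ± 0.56; adjusted p = 0.03), and that call held in 1 of 4 such fits, as did that of Mir290a below. Mir302a (chr3:127545496-127545564, plus strand), of a cluster abundant in primed cells, read 2.11 and 1.94 in the line, at background, and 6.40 and 7.14 in the tissue. It fell by 4.74 ± 0.72 (adjusted p = 0.00114). The other 4 members of the miR-302-367 cluster did not pass, with differences of -2.80 to -0.20 and Mir302d and Mir367 at adjusted p = 0.0714 and 0.0689. Mir290a, the measured member of the cluster of naive cells, fell by 1.93 ± 0.60 (adjusted p = 0.0394), from 4.53 and 2.53 in the tissue, but all 4 of its values are at background.

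**Figure D5:**
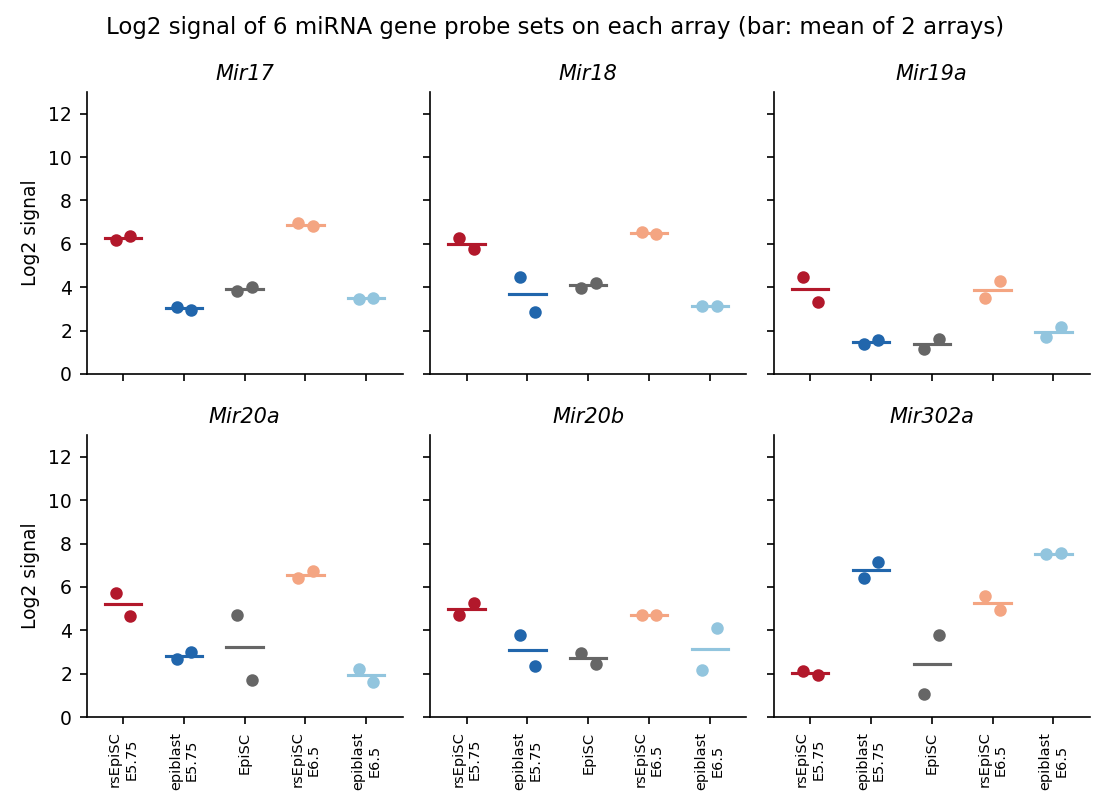
Log2 signal of 6 microRNA gene probe sets on each array of 5 groups (points, 2 arrays a group; bar, their mean). Mir17 stood at 6.16 and 6.38 in rsEpiSC E5.75 and at 3.07 and 2.96 in the tissue; Mir302a stood at 2.11 and 1.94 against 6.40 and 7.14.

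The labelled tissue was checked against defining markers. All 10 epiblast markers were above background on both tissue arrays, and 7 of 10 on both line arrays: Otx2, Pou3f1, Sox2, Dnmt3b, Lin28a, Utf1 and Foxd3, but not Pou5f1, Fgf5 or Tdgf1. Their mean signal was 6.59 and 6.71 in the line and 7.92 and 8.27 in the tissue, with 6 lower and 1 higher in the line. Of 9 visceral endoderm markers, the layer that wraps the epiblast, 1 was above background in the tissue (Gata4) and 5 in the line, and none passed. Their means were 4.58 and 4.47 in the tissue and 4.27 and 4.06 in the line. Each group was counted against its own background, 4.20 to 4.23 on the line's arrays and 4.69 to 4.80 on the tissue's. Sox17, counted in the line, averaged below the tissue's level. On the full list of 23, Spink1 fell by 4.20 ± 0.64 and Rhox5 by 2.36 ± 0.56, and 21 did not pass (left-out counts that fell 1, 2, 1 and 5). Rhox5 had an adjusted p of 0.118 without the first line array and 0.0725 without the first tissue array. The 2 visceral endoderm genes that fell are a share near the 10% of all genes that fell. None of 6 extraembryonic ectoderm markers, 4 maternal or 4 blood and endothelial markers was above background in the tissue. In bulk RNA, fewer cells of a type and less RNA per cell cannot be told apart.

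Feeder cells could add fibroblast RNA to the line. Of 7 defining fibroblast markers 4 were above background in the line and 3 in the tissue, with means of 4.47 and 4.53 against 4.35 and 4.47. The background level was lower in the line, and Col3a1, counted there, averaged below the tissue's level. Col1a2, a collagen chain, read 7.70 and 7.88 in the line and 4.11 and 4.73 in the tissue (3.37 ± 0.63, SE; adjusted p = 0.00375), while its partner chain Col1a1 differed by -0.11 and Col3a1 by 0.12, and Dcn, decorin, fell by 2.14 ± 0.30. On the full list of 21, 4 rose, among them Mmp2 (2.82 ± 0.41), Acta2 (2.33 ± 0.33) and Tagln (2.02 ± 0.34). These move with the mesenchymal and cytoskeletal genes above, and their part in those results was not tested.

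Whether the line differed from its tissue in another way at E5.75 than at E6.5 was tested as the difference of the 2 differences, whose sides share no array. It passed for 2 of 22180 genes (0.00902%), both on the X chromosome. Mid1 read 10.57 and 10.68 in rsEpiSC E5.75 and 5.71 and 5.41 in its tissue, against 6.60 and 7.02 in rsEpiSC E6.5 and 5.85 and 6.17 in its tissue. The E5.75 line alone was high, and the difference of differences was 4.27 ± 0.37 (SE; adjusted p = 0.00159). Xist read 3.17 and 2.65 in rsEpiSC E6.5 and 8.41 and 8.92 in epiblast E6.5, so line and tissue were far apart at E6.5 and not at E5.75 (6.05 ± 0.76; adjusted p = 0.0451). At an unadjusted p under 0.05 there were 1919 genes. Utf1 came next among the genes described: it was lower than its tissue at E5.75 and read 9.62 and 8.76 against 8.20 and 7.76 at E6.5 (-3.21 ± 0.52; adjusted p = 0.0875). The count ran from 0, with the mean of probe sets, to 9, with arrays scaled. Few differences between the stages could thus be shown with 2 arrays a group, which does not show that the stages act alike.

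Against EpiSC, which came from the same stage in another medium, rsEpiSC E5.75 passed for 858 genes (3.87%), 345 higher and 513 lower. Since both lines were set against the same tissue arrays, their own values are given side by side. Sox2 averaged 6.86 in EpiSC and rsEpiSC was higher by 3.26 ± 0.24 (SE; adjusted p = 4.32e-05), while the tissue lay with rsEpiSC. Nanog averaged 8.79 in EpiSC, and rsEpiSC minus EpiSC was -3.47 ± 0.35. Tdgf1 averaged 10.88 in EpiSC, with a difference of -7.27 ± 0.61. For Dppa2, by contrast, EpiSC averaged 3.37 and rsEpiSC differed from it by 0.19 ± 0.40, both far below the tissue. Dnmt3b averaged 8.44 in EpiSC, a difference of -0.21 from rsEpiSC that did not pass (adjusted p = 0.969).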

How the data were processed

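The series holds 12 expression arrays of mouse embryonic stem cells, epiblast stem cell lines and epiblast tissue, 2 arrays a group. The labels' protocol names a human array, but the probe identifiers match the mouse annotation, which was used. Per the labels' protocols, total RNA was amplified and biotin-labelled from 100 ng; the submitters' processing notes name oligo and RMA, with no version given in the sources used here. Values deposited by the authors are log2 RMA signal per probe set, with no missing value, from 0.332 to 13.594. The number of arrays limits the precision.

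Of 41345 probe sets, 23521 had 1 gene symbol in GEO's platform annotation, 1814 several and 16010 none. Only those with 1 were used, and 99.18% of their gene identifiers were in the RefSeq table. For 1082 genes with several probe sets, the one with the highest mean was used, which left 22180 genes. limma 3.58.1 in R 4.3.3 fitted the means of all 6 groups over the 12 arrays (lmFit, eBayes with a variance trend, 6 residual degrees of freedom). Benjamini-Hochberg adjustment ran over all genes and the threshold was an adjusted p of 0.05. The script was tested on simulated data. Alternatives were the 4 arrays alone, the replicate number as a block, each array left out, and centred, scaled or quantile normalized arrays. Others were array weights, every probe set, the mean of probe sets, no variance trend, and treat. A filter on low signal kept the 13381 genes whose highest group mean was above 4.63. With every probe set, all 41345 entered the fit and the adjustment. Calls were then read only for the probe set already chosen per gene, so other probe sets of a gene were not compared. Background was the 95th percentile of olfactory and vomeronasal receptor genes on each array.

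Same-numbered arrays of different groups did not deviate together (correlations of -0.26 to 0.058 over 15 pairs of groups), so the numbers were not taken to pair them. The comparison, its 45 gene lists (2234 of 2293 members measured) and their rules were chosen with earlier results of these data known. Named by rule were up to 12 genes with the largest rise and fall that are no predicted genes or small RNAs and whose groups do not overlap, and, per list, up to 5 members that passed and 2 that did not. Fixed pluripotency and cell type markers were named in any case. Other named genes, all microRNA genes among them, were chosen after their values were seen. Promoters and microRNA sequences are from RefSeq (GRCm38.p6). Passage and strain fields count up array by array and were not used.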

Additional observations from a re-analysis of the deposited data

Results flagged for a closer look

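Both genes for which the difference between line and tissue itself differed between E5.75 and E6.5 deserve a second look. For Mid1 the difference of differences was 4.27 on the log2 scale (limma, adjusted p = 0.00159): both rsEpiSC E5.75 arrays were high, and neither tissue nor rsEpiSC E6.5 was. For Xist it was 6.05 (adjusted p = 0.0451), with both rsEpiSC E6.5 arrays low and the other line and both tissues high. Neither gene passed when the mean of a gene's probe sets was used in place of the probe set with the highest mean. Each line may be 1 derivation, so stage and line cannot be told apart.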

How the results depend on the processing

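The count of genes that differed between line and tissue, 4768, was 2909 with the 4 arrays alone, 322 by treat, and 1627 to 5504 with 1 array left out. With replicate numbers as a block it was 4459, of which 4344 were among the 4768. Scaling kept a like count (4622) but shared 2527 genes with it, and a filter on low signal gave 2687 higher and 1128 lower genes. Splits of higher calls were 53.5% as deposited, 34.3% with arrays scaled, 52.1% after quantile normalization and 70.4% with the filter. Of 304 named genes 193 passed, and 80 kept call and direction in all 15 alternatives. Gpx1 (-0.64), Slc2a1 (-0.39) and Cdk1 (-0.35) reversed with arrays scaled. The cause of these changes was not tested.

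For the stage difference limma called 2 genes, and 1919 had an unadjusted p under 0.05. It called 7 with the arrays compared alone, 1 with the replicate block, 9 with arrays scaled, 4 after quantile normalization, 1 with array weights, 1 over every probe set, 7 with the filter, 4 without the variance trend, 1 by treat and 1 to 5 with 1 array left out. With the mean of probe sets limma called 0. The 858 genes against EpiSC became 500 with arrays scaled, 1567 with array weights, 444 over every probe set, 116 by treat and 318 to 626 with 1 array left out. Arrays with signal near background limit what low genes can show.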

Other observations

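Of 30 histone genes, 8 rose and 4 fell (median 0.07; 7 and 7 with arrays scaled; left-out counts that rose 3, 4, 5 and 6, and that fell 1, 1, 3 and 3). H1f2, a linker histone, rose by 2.78 on the log2 scale and H4f16 by 2.73. H2bc1 fell by 3.36, but the difference was -5.73 without the first tissue array and -0.99 without the second, and the call was lost without either line array (adjusted p = 0.157 and 0.104 in limma). H2ac1 fell by 2.77, with an adjusted p of 0.0509 without the first line array. Histone copies are near-identical, so each probe set may read several.

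Interferon and MHC genes gave 2 up and 1 down of 16, where 11.5% of all genes rose and 10% fell (2 and 2 with arrays scaled). Antioxidant and metal genes gave 4 up and 2 down of 16, but 2 up and 10 down with arrays scaled. B2m, the light chain of MHC class I, rose by 2.73, whereas Psmb8 fell. The peroxide-breaking enzyme Cat rose by 2.46 and Gpx4, which protects lipids from peroxidation, by 2.16, whereas Gclm and Gclc fell. On chromosome 8, 15.7% of measured genes rose and 6.37% fell, against 11.5% and 10% over all genes. That chromosome was singled out after its values were seen.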
